A study of Mus musculus with 4 samples.

Results

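*Mt1* and *Mt2* encode metallothioneins, and are 2 of the 32285 genes in the count tables of hepatic CD4+ T cells from mice with diet-induced steatohepatitis. The rows of both symbols were read in each library. *Mt1* was chosen by its high ratio of the dKO-labelled to the WT-labelled library in Treg cells, and *Mt2* was added as its close relative. The ratio of *Mt1* in Treg cells is therefore given below as a description and is not a finding.

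Metallothioneins are small, cysteine-rich proteins that hold zinc and copper ions in clusters bound by the sulfur of their cysteines, and that also bind cadmium. When free zinc rises, the zinc-sensing transcription factor MTF-1, encoded by *Mtf1*, binds metal response elements in their promoters and raises their transcription. Glucocorticoids and IL-6 also induce them, which makes them acute-phase genes of the liver, and T cells are known to raise them on activation. *Mt3* and *Mt4*, their neighbors on the chromosome, are best known from the brain and from stratified epithelium.

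Cells were sorted as hepatic CD4 T cells from male WT mice and from male dKO mice, in which *Nr4a1* fl/fl and *Nr4a2* fl/fl alleles were combined with *Cd4*-Cre. *Cd4*-Cre acts in all cells of the αβ T lineage, so the deletion was not limited to Treg cells, and nothing in the sources used here says whether the WT mice carried floxed alleles or Cre. Both groups received a choline-deficient diet with 60 kcal% fat and 0.1% methionine for 8 weeks. Cells of 2 mice were pooled into 1 droplet library per genotype and cannot be told apart, so no test between genotypes was run. The ages of these mice are not given in the sources used here.

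After filtering, the WT-labelled library held 10556 cells and 23437516 UMIs (unique molecular identifiers, each counting 1 captured RNA molecule once), and the dKO-labelled library held 17462 cells and 37794986 UMIs, with medians of 1679 and 1685 UMIs per cell. The libraries shared 242 cell barcodes, 2.29% of the WT and 1.39% of the dKO barcodes, and no clonotype was found in both among 1449 and 1386. The targeted genes went against the labels. *Nr4a1* had 725 CPM (UMIs per 1000000 UMIs of the cells named) in the WT-labelled library and 1659 CPM in the dKO-labelled library, and *Nr4a2* had 183 and 306 CPM. The counts give genes and not exons, so RNA from exons outside the floxed segments is counted as well, and the libraries are called by their labels throughout. Intervals in parentheses are exact 95% intervals of counting error and do not cover differences between mice or preparations.

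In GENCODE M21 on GRCm38, *Mt1* (ENSMUSG00000031765) lies at chr8:94179082-94180327 and *Mt2* (ENSMUSG00000031762) at chr8:94172664-94173568, both on the plus strand, with 5513 bases between the end of *Mt2* and the start of *Mt1*. *Mt3* lies at chr8:94152607-94154146 and *Mt4* at chr8:94137197-94139031 in the same orientation. The main annotated transcripts of *Mt1* and *Mt2* hold 549 and 511 bases in 3 exons each. A UMI counts the 5′ end of a molecule, so no scaling by length was applied. An antisense gene, Gm45774, overlaps *Mt2* and had no UMI in the Treg cells of either library.

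The coding sequences show the cysteine content of the proteins and how far reads of the 2 genes can be told apart. They are printed 5′ to 3′ from GENCODE M21, with cysteine codons (TGC or TGT) in capitals.
Mt1: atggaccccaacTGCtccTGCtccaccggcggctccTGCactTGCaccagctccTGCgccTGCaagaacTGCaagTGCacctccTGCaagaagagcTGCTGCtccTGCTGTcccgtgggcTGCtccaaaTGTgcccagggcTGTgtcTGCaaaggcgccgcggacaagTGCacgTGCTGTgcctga
Mt2: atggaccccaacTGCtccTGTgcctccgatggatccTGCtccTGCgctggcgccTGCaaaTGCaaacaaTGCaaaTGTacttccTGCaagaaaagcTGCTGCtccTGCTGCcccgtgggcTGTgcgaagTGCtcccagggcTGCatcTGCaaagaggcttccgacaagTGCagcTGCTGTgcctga
Each is 186 bases long and encodes 61 amino acids, of which 20 are cysteine (32.8%), and all 20 cysteine codons stand at the same place in both. The sequences are identical at 148 of 186 bases (79.6%). The longest run of bases that the annotated transcripts share is 20, and before the start codon it is 10. How many reads matched both genes and were dropped in counting was not tested.

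The sequences before the annotated starts were searched for the metal response core, the letters that MTF-1 is known to bind. Each window runs 5′ to 3′ on the plus strand from 250 bases before to 30 bases after the transcript start of RefSeq on GRCm38.p6, at chr8:94178839-94179118 for *Mt1* and at chr8:94172368-94172647 for *Mt2*. Capitals mark matches, on either strand, to the metal response cores TGCACNC and TGCGCNC.
Mt1: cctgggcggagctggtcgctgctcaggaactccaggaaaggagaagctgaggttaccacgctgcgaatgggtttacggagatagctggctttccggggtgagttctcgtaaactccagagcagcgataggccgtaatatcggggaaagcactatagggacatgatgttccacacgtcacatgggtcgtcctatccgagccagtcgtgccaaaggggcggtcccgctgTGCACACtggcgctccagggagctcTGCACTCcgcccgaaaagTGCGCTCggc
Mt2: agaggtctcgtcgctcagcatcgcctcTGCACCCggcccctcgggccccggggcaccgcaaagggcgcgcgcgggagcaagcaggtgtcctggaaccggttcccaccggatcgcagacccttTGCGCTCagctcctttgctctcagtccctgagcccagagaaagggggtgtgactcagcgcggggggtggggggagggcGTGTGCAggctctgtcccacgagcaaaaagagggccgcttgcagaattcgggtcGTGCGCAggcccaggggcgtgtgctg
Among 32851 RefSeq windows of 300 bases, from 250 before to 50 after each start, 25.7% held at least 1 of these cores and 1.97% held at least 3. The *Mt1* window held 3 and the *Mt2* window 4, and those of *Mt3* and *Mt4* held 1 each. The element of the Nr4a family, AAAGGTCA, was found in 1.51% of windows and in neither of the 2 genes. Of the other motifs searched on both strands, the antioxidant element TGACNNNGC occurred once in *Mt2* (12.4% of windows), ACANNNTGT, for glucocorticoid receptor, occurred once in *Mt1* (6.85%), and TTCNNNGAA, for STAT factors, occurred in neither (8.30%). A match describes letters in these windows and says nothing of binding. The first TATAAA of the annotated transcripts starts at base 129 of *Mt1* (chr8:94179210) and base 90 of *Mt2* (chr8:94172753), past the end of both windows, and the transcripts hold 4 and 3 of these cores before it.

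Cells were assigned to classes by markers, each cell to the first class whose gate it met. Foxp3 T cells are T cells (a TRB contig, or at least 2 UMIs of CD3 and T cell receptor constant genes) with at least 1 *Foxp3* UMI. Regulatory-marker T cells have no *Foxp3* UMI but at least 3 UMIs over *Il2ra*, *Ctla4*, *Ikzf2*, *Tigit*, *Tnfrsf4* and *Tnfrsf18*, from at least 2 of them. The Foxp3 gate held 489 cells in the WT-labelled library and 3297 in the dKO-labelled library. Treg genes outside the gate were high in both, with *Ctla4* at 1347 and 2288 CPM against 313 and 837 CPM in T cells with an *Ifng* UMI, and *Ikzf2* at 857 and 1109 CPM against 113 and 346 CPM. The *Ifng* class was assigned before the gate on these markers. *Cd8a* had no UMI in Foxp3 T cells of either library, where a count of 0, read as up to 3 UMIs, allows up to 2.03 and 0.421 CPM. *Alb*, the main transcript of hepatocytes, had 3.39 and 0.702 CPM, while a list of 13 hepatocyte genes had the opposite order, 43.4 and 89.6 CPM.

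In Foxp3 T cells, *Mt1* had 52 UMIs and 35.2 CPM (26.3 to 46.2) in the WT-labelled library and 1356 UMIs and 190 CPM (180 to 201) in the dKO-labelled library. The ratio of dKO to WT was 5.40-fold (4.10 to 7.27), a log2 ratio of 2.43. *Mt2*, which the choice of *Mt1* did not use directly, had 5 UMIs and 3.39 CPM (1.10 to 7.91) against 131 UMIs and 18.4 CPM (15.4 to 21.8), a log2 ratio of 2.44 (1.18 to 4.09). The ratio of *Mt1* is what the gene was chosen by, and that of *Mt2* rests on 5 UMIs in the WT-labelled library. Without the cells whose barcodes occur in both libraries, the log2 ratios were 2.48 for *Mt1* and 2.41 for *Mt2*.

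*Mt3* and *Mt4* serve as a comparison, since they stand beside *Mt1* and *Mt2* in the same orientation. *Mt3* had 8 UMIs and 5.42 CPM (2.34 to 10.7) against 75 UMIs and 10.5 CPM (8.28 to 13.2), a log2 ratio of 0.96 (−0.09 to 2.22) that includes 0. In regulatory-marker T cells *Mt3* had 9 UMIs and 3.70 CPM against 91 UMIs and 12.4 CPM, a log2 ratio of 1.74 (0.76 to 2.92), and in proliferating T cells the ratio was 1.66 (0.50 to 2.92), so both left out 0 in the direction of *Mt1*. *Mt4* had no UMI in any class. Of the other genes within 0.25 Mb, *Nup93*, encoding a nuclear pore protein, had a log2 ratio of 0.60 (−0.16 to 1.45), *Nudt21*, a polyadenylation factor, −0.10 (−0.32 to 0.12), and *Herpud1*, a gene of the unfolded protein response, −0.16 (−0.46 to 0.15). In Foxp3 T cells none of these named neighbors was past 2-fold.

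Regulatory-marker T cells without *Foxp3* showed the same pair of genes at the same levels in the dKO-labelled library. *Mt1* had 33 UMIs in 1017 cells, or 13.6 CPM (9.33 to 19.03), against 1446 UMIs in 4819 cells, or 197 CPM (187 to 207), a log2 ratio of 3.86 (3.36 to 4.40). *Mt2* had 4 UMIs and 1.64 CPM (0.448 to 4.21) against 136 UMIs and 18.5 CPM (15.5 to 21.9), a log2 ratio of 3.49 (2.11 to 5.39). The WT level of *Mt1* in this class was low, and its interval overlapped that of naive-like T cells, 7.03 CPM (4.35 to 10.7). Whether these 2 levels differ was not tested. Both ratios rest on few UMIs of the WT-labelled library, 33 and 4. In the dKO-labelled library the intervals of this class and of Foxp3 T cells overlapped for both genes, whereas in the WT-labelled library *Mt1* was lower in this class than in Foxp3 T cells.

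Among the other T cells, the class with an *Ifng* UMI also differed between libraries by CPM. *Mt1* had 52 UMIs in 1398 such cells, or 15.3 CPM (11.4 to 20), against 147 UMIs in 733 cells, or 116 CPM (97.6 to 136), a log2 ratio of 2.92 (2.46 to 3.41). Of the 147 UMIs, 67.3% were in 8 cells and 1 cell held 43, so this level rests on few cells. With every cell thinned to 1000 UMIs, the shares of cells with *Mt1* were 1.94% (1.26 to 2.85) and 3.67% (2.34 to 5.46), and their intervals overlapped. *Mt2* had 4 and 12 UMIs there, 1.17 CPM (0.320 to 3.004) and 9.43 CPM (4.87 to 16.5). A list of 4 neutrophil genes had 2.64 CPM (1.21 to 5.01) and 62.9 CPM (49.8 to 78.2) in this class, and its part in the ratio was not tested.

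In the remaining T cell classes *Mt1* was lower than in these 3 in the dKO-labelled library, while in the WT-labelled library their intervals overlapped those of regulatory-marker T cells. Proliferating T cells had 22.5 CPM (16.9 to 29.4) of *Mt1* in the WT-labelled library and 36.2 CPM (27.3 to 47.1) in the dKO-labelled library. T cells with *Il17a* or *Il17f* had 13.7 CPM (4.46 to 32.0) and 36.2 CPM (22.4 to 55.3), and T cells of no other class had 13.2 CPM (9.66 to 17.6) and 22.8 CPM (16.6 to 30.6). Naive-like T cells, gated on markers that include *Ccr7*, *Lef1*, *Dapl1* and *S1pr1*, had the lowest level among T cells, 7.03 CPM (4.35 to 10.7) and 4.07 CPM (1.11 to 10.4). Their log2 ratio of −0.79 (−2.79 to 0.78) rests on 21 and 4 UMIs and includes 0.

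*Mt2* was near the limit of detection in those classes, with 0 to 7 UMIs in each. Naive-like T cells had 0 UMIs in the WT-labelled library, which allows up to 1.004 CPM, and 1 UMI in the dKO-labelled library. T cells with *Il17a* or *Il17f* had 0 UMIs in both libraries, which allows up to 8.23 and 5.17 CPM.

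The highest level of *Mt1* was in myeloid cells, which had passed the sort as well. C1q+ myeloid cells, gated on the complement genes that mark tissue macrophages, had 306 CPM (264 to 353) in 212 cells of the WT-labelled library and 540 CPM (496 to 588) in 312 cells of the dKO-labelled library. C1q− myeloid cells had 209 CPM (173 to 249) and 331 CPM (289 to 378). The log2 ratios were 0.82 (0.58 to 1.07) and 0.67 (0.34 to 0.999), below those of Foxp3, regulatory-marker and Ifng T cells. The neutrophil list also differed between the libraries, at 6.44 and 445 CPM in C1q+ cells and at 27.3 and 6069 CPM in C1q− cells, and its part in these ratios was not tested.

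*Mt2* was rare in the same myeloid cells, with 2 and 6 UMIs in C1q+ cells and 1 and 6 UMIs in C1q− cells. *Mt2* made up 1.39% (0.778 to 2.28) of the *Mt1* and *Mt2* UMIs of both myeloid classes and libraries together, 15 UMIs beside 1067. In all T cell classes together it made up 8.50% (7.62 to 9.46), 310 UMIs beside 3336. The share in T cells was 6.74% (4.10 to 10.3) in the WT-labelled library and 8.65% (7.72 to 9.65) in the dKO-labelled library, so the proportion of the genes was alike between libraries and differed between cell types.

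Plasmacytoid dendritic cells (pDC), gated on *Siglech* and related genes, had little of either gene. *Mt1* had 4.86 CPM (2.97 to 7.5) in 1621 cells of the WT-labelled library and 19.2 CPM (16.9 to 21.6) in 4082 cells of the dKO-labelled library, a log2 ratio of 1.98 (1.32 to 2.71). As a fold this is 3.94 (2.50 to 6.56), whose interval overlaps that of Foxp3 T cells. In the dKO-labelled library, 10 cells with at least 5 UMIs held 36.7% of the *Mt1* UMIs. *Mt2* had 0 UMIs, which allows up to 0.728 CPM, and 13 UMIs, or 0.943 CPM (0.502 to 1.61). The neutrophil list had 4.13 and 162 CPM in pDC. Treg genes differed there as well, with *Foxp3* at 8.74 and 32.6 CPM, *Tigit* at 29.6 and 109 CPM and *Ctla4* at 60.2 and 205 CPM. *Il2ra*, at 13.1 and 15.2 CPM, and *Izumo1r*, at 23.6 and 27.8 CPM, differed less. The part of RNA from other cells in the *Mt1* ratio of pDC was not tested.

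**Figure D1:**
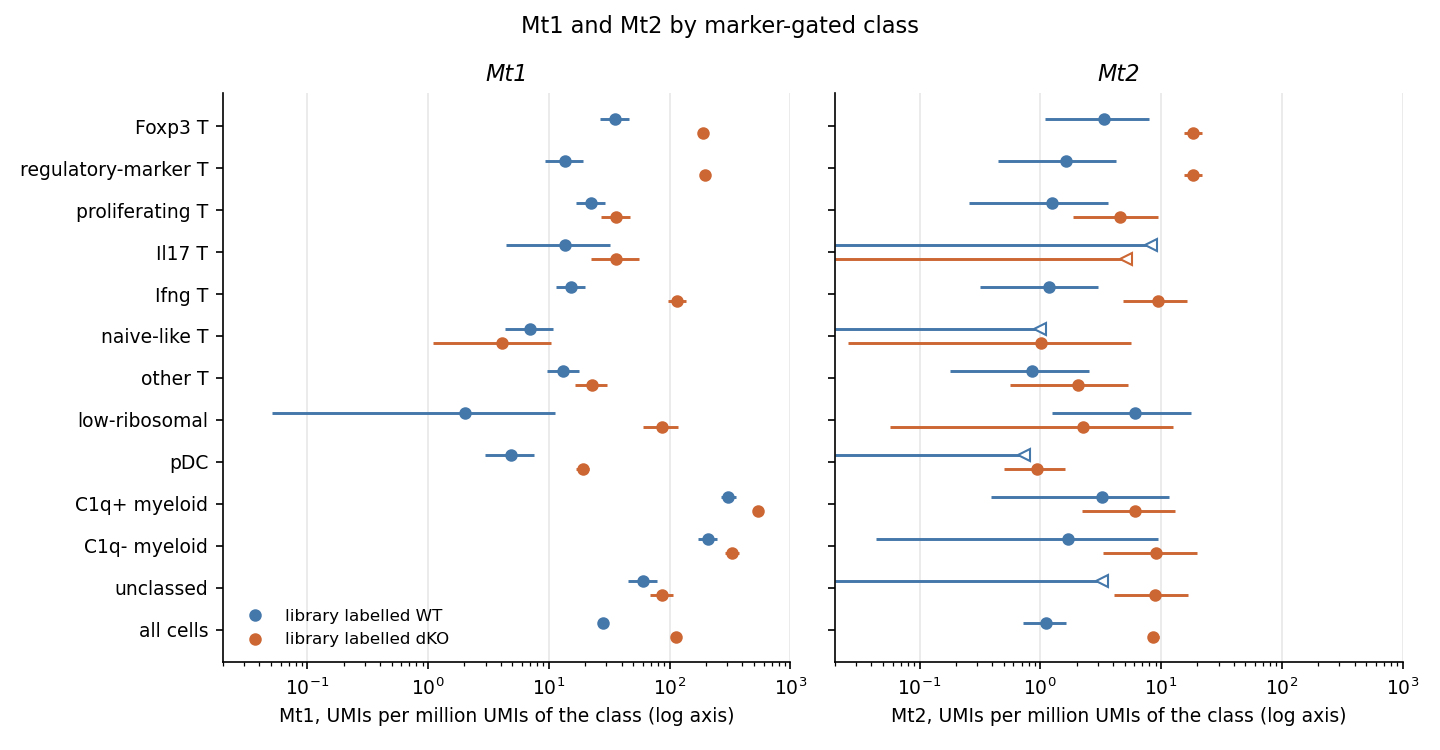
*Mt1* (left) and *Mt2* (right) in CPM of each class on a log axis, with exact 95% Poisson intervals of counting error; open triangles mark the level that 3 UMIs would give where none was found. *Mt1* is highest in both myeloid classes, and *Mt1* of the libraries stands far apart in Foxp3, regulatory-marker and Ifng T cells, in pDC, and in the low-ribosomal droplets, where it rests on 1 and 38 UMIs. The neutrophil list had 14.1 CPM in the low-ribosomal droplets of the WT-labelled library and 25452 CPM in those of the dKO-labelled library. Its part in their difference was not tested.

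In the order of levels in the dKO-labelled library, C1q+ and C1q− myeloid cells came first and their intervals did not overlap. Regulatory-marker and Foxp3 T cells followed with overlapping intervals, and both stood above Ifng T cells. Low-ribosomal droplets (85.9 CPM, 60.8 to 118) and unclassed cells (85.8 CPM, 68.8 to 106) came next, with intervals that overlapped that of Ifng T cells. Proliferating T cells, Il17 T cells and other T cells overlapped, as did other T cells and pDC, and naive-like T cells were lowest. In the WT-labelled library, Foxp3 T cells overlapped with proliferating and Il17 T cells and lay above the other T cell classes, and naive-like T cells lay below proliferating and Ifng T cells. Classes of 14 to 52 cells (mature DC and ILC3-like cells) had 0 to 19 *Mt1* UMIs and are not ranked.

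The classes that held the *Mt1* UMIs differed between libraries. In the WT-labelled library, C1q+ and C1q− myeloid cells held 28.9% and 18.5% of 658 *Mt1* UMIs and Foxp3 T cells 7.90%. In the dKO-labelled library, Foxp3 T cells held 32.0% and regulatory-marker T cells 34.1% of 4236 *Mt1* UMIs, while they made up 18.9% and 27.6% of the cells. These classes held 40.1% and 41.6% of the 327 *Mt2* UMIs of the dKO-labelled library.

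The share of cells with a UMI depends on depth, so 1000 UMIs were drawn from every cell and cells with fewer were not used (48 of the WT and 534 of the dKO Foxp3 T cells). *Mt1* was then found in 11 of 441 Foxp3 T cells of the WT-labelled library, 2.49% (1.25 to 4.42), and in 310 of 2763 of the dKO-labelled library, 11.2% (10.1 to 12.5). Naive-like T cells, as a class with little *Mt1*, gave 0.639% (0.276 to 1.26) and 0.360% (0.0437 to 1.30), and pDC gave 0.409% (0.133 to 0.952) and 0.885% (0.620 to 1.22). The interval of Foxp3 T cells in the WT-labelled library overlapped that of naive-like T cells at its lower end, so only its upper part lies above this background, while in the dKO-labelled library the intervals were far apart. Without thinning the shares in Foxp3 T cells were 6.75% and 17.4%, at median depths of 2240 and 1632 UMIs, so the deeper cells were in the WT-labelled library. In naive-like T cells the unthinned shares were 1.43% and 0.639% at median depths of 2027 and 1521.5 UMIs.

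*Mt2* was found in 1 of 441 thinned Foxp3 T cells of the WT-labelled library, 0.227% (0.00574 to 1.26), and in 55 of 2763 of the dKO-labelled library, 1.99% (1.503 to 2.58). Regulatory-marker T cells had *Mt1* in 1.20% (0.600 to 2.13) and 8.98% (8.07 to 9.96) of thinned cells and *Mt2* in 0.327% (0.0674 to 0.952) and 1.69% (1.29 to 2.16). In the WT-labelled library the intervals of this class overlapped those of naive-like T cells for both genes, so its shares are not read as above that level. C1q+ myeloid cells had *Mt1* in 18.4% (13.04 to 24.9) and 22.5% (17.8 to 27.7) of thinned cells, with overlapping intervals.

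The *Mt1* UMIs of Treg cells were spread unevenly over cells. Of the 3297 Foxp3 T cells of the dKO-labelled library, 2723 had none, 332 had 1, 110 had 2, 75 had 3 to 4, 38 had 5 to 9 and 19 had 10 or more, with a maximum of 30. The 57 cells with at least 5 UMIs held 40.7% of the *Mt1* UMIs, and the highest 165 cells (5%) held 64.2%. Of the 489 cells of the WT-labelled library, 26 had 1 UMI, 5 had 2, 2 had 5 to 9 and none had 10 or more. After thinning, the ratio of variance to mean was 4.76 in the dKO-labelled library, with 88.8% of cells at 0 where a Poisson spread around the same mean would give 80.5%. In the WT-labelled library it was 1.54, with 97.5% of cells at 0 against 96.9%.

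Regulatory-marker T cells of the dKO-labelled library showed the same shape. Their highest cell held 56 *Mt1* UMIs, 20 cells had 10 or more, and the 59 cells with at least 5 held 41.1% of the UMIs. The ratio of variance to mean was 6.49 in thinned cells, against 2.63 in C1q+ myeloid cells of the same library, where the mean was 0.408 UMIs per thinned cell against 0.189. The mean of thinned Foxp3 T cells was 0.217. Foxp3 and regulatory-marker T cells of that library thus had a lower mean than the C1q+ myeloid cells and a more uneven spread over cells.

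**Figure D2:**
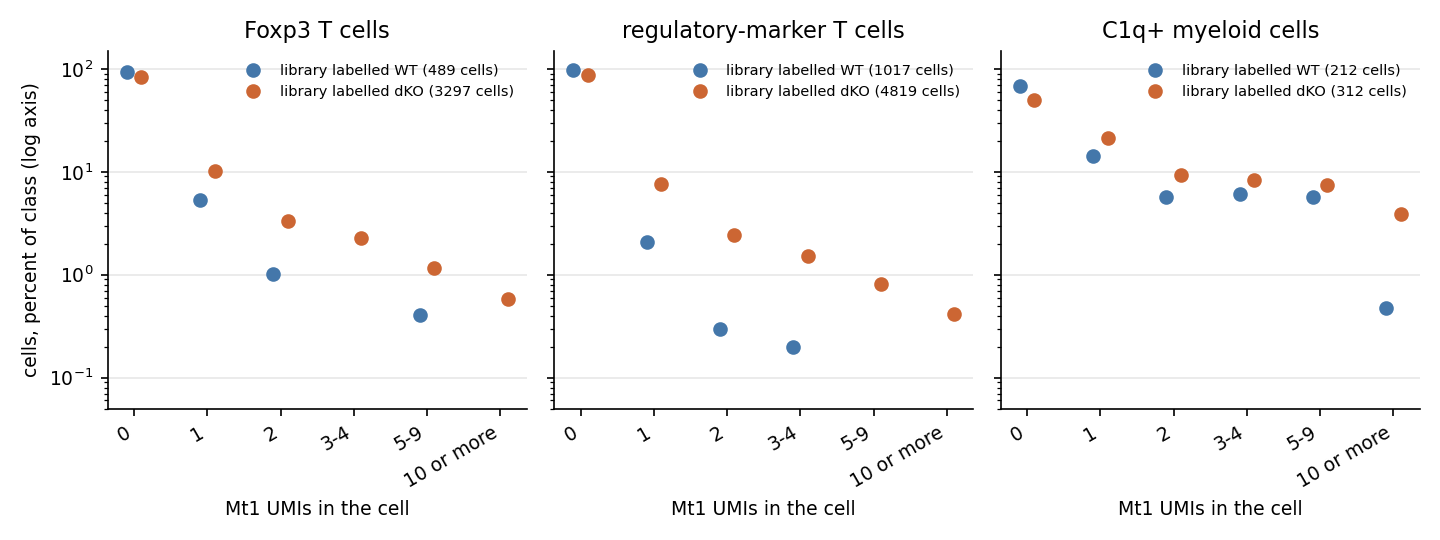
Percent of cells (log axis) by the number of *Mt1* UMIs in the cell, without thinning, for Foxp3 T cells, regulatory-marker T cells and C1q+ myeloid cells of each library; bins without a cell have no point. In Foxp3 T cells, 19 of 3297 cells of the dKO-labelled library had 10 or more UMIs and none of 489 cells of the WT-labelled library.

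*Mt2* was more often found in cells with *Mt1* than in cells without. In thinned Foxp3 T cells of the dKO-labelled library, 30 of 310 cells with *Mt1* had *Mt2*, 9.68% (6.62 to 13.5), and 25 of 2453 cells without, 1.02% (0.661 to 1.501). In regulatory-marker T cells the shares were 36 of 325, 11.1% (7.88 to 15.0), and 25 of 3294, 0.759% (0.492 to 1.12). The intervals were far apart in both classes, although 25 of the cells with *Mt2* had no *Mt1* UMI in either class. Among cells of the WT-labelled library, 1 of 11 Foxp3 T cells with *Mt1* had *Mt2* and 0 of 430 without, too few cells for a comparison. *Mt3*, counted the same way, was found in 2.90% (1.34 to 5.44) of dKO Foxp3 T cells with *Mt1* and 0.734% (0.435 to 1.16) without, and in 1.23% (0.336 to 3.12) and 1.18% (0.843 to 1.62) of regulatory-marker T cells.

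The share of cells with *Mt2* was higher in cells with more *Mt1* UMIs. Among unthinned Foxp3 T cells of the dKO-labelled library it was 1.18% at 0 *Mt1* UMIs, 4.52% at 1, 15.1% (10.3 to 21.1) at 2 to 4 and 49.1% (35.6 to 62.7) at 5 or more. Regulatory-marker T cells gave 0.857%, 4.64%, 12.5% (8.18 to 18.0) and 42.4% (29.6 to 55.9) in the same bins. The median depth of the Foxp3 T cells was 1562 UMIs at 0 and 2261 at 5 or more, and that of the regulatory-marker T cells 1285 and 1412. Cells with 5 or more *Mt1* UMIs had *Mt3* in 1.75% (0.0444 to 9.39) and 1.69% (0.0429 to 9.09) of cases. In Foxp3 T cells *Mt3* was found in 1.65% (1.21 to 2.21) at 0 *Mt1* UMIs, 2.71% (1.25 to 5.08) at 1 and 5.95% (3.01 to 10.4) at 2 to 4, so its interval at 2 to 4 lay above that at 0. In regulatory-marker T cells it was found in 1.83%, 1.37% and 1.56% of cells in these bins.

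**Figure D3:**
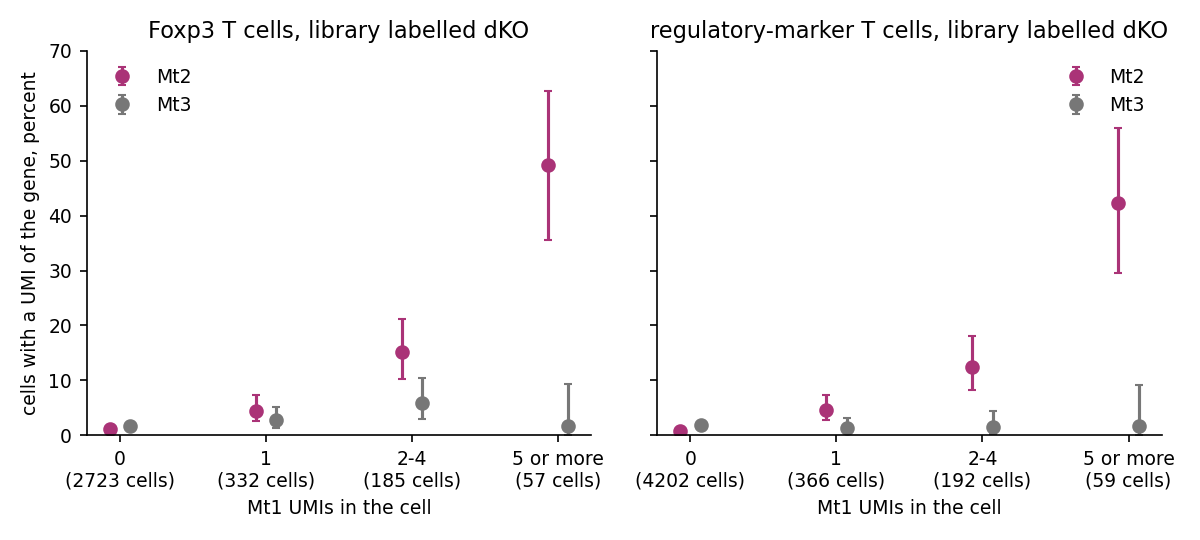
Percent of cells with a UMI of *Mt2* or *Mt3* by the number of *Mt1* UMIs in the cell, without thinning, in Foxp3 and regulatory-marker T cells of the dKO-labelled library; bars are exact 95% binomial intervals. *Mt2* goes from 1.18% to 49.1% and from 0.857% to 42.4%, while *Mt3* in Foxp3 T cells is at 1.65%, 2.71%, 5.95% and 1.75% in the same order.

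In other classes of the dKO-labelled library, cells with *Mt1* were few after thinning. Among Ifng T cells, 1 of 23 cells with *Mt1* had *Mt2*, 4.35% (0.110 to 21.9), and 5 of 603 without, 0.829% (0.270 to 1.92), with overlapping intervals. Thinned pDC gave 0 of 36 and 1 of 4033 cells, and C1q+ myeloid cells, where *Mt1* was highest, 0 of 65 and 1 of 224, so no order can be read there. Without thinning, and so without matched depth, *Mt2* was in 8 of 123 pDC with *Mt1*, 6.504% (2.85 to 12.4), and in 3 of 3959 without, 0.0758% (0.0156 to 0.221). Unthinned C1q+ myeloid cells gave 3.18% (1.04 to 7.28) and 0.645% (0.0163 to 3.54), which overlapped.

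Within the Foxp3 T cells of the dKO-labelled library, subsets were gated by 1 UMI of a marker in thinned cells. *Mt1* was found in 64 of 400 cells with *Il10*, the suppressive cytokine, 16% (12.5 to 19.97), against 10.4% (9.21 to 11.7) of cells without. It was found in 14.5% (12.2 to 17.0) of cells with *Klrg1*, a marker of terminally differentiated Treg cells, against 9.76% (8.46 to 11.2) without, and in 12.7% (11.1 to 14.5) of cells with the inhibitory receptor *Tigit* against 9.32% (7.74 to 11.1) without. For *Il10* and *Klrg1* the intervals did not overlap, and for *Tigit* they met at their ends. In regulatory-marker T cells the shares were 14.8% (11.6 to 18.6) against 8.19% (7.26 to 9.19) for *Il10*, 12.6% (10.4 to 15.1) against 7.89% (6.92 to 8.96) for *Klrg1* and 11.2% (9.84 to 12.7) against 6.27% (5.14 to 7.56) for *Tigit*, and none of these pairs overlapped.

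The genes of tissue repair gave a mixed picture. *Mt1* was found in 12.2% (9.98 to 14.6) of Foxp3 T cells with *Areg*, the repair factor amphiregulin, against 10.8% (9.49 to 12.3) without, and in 7.39% (3.99 to 12.3) of cells with *Il1rl1*, the receptor for IL-33, against 11.5% (10.3 to 12.8). Both pairs overlapped. By CPM the order for *Areg* was the opposite, 180 (166 to 195.5) with it and 199 (185 to 213) without, so no order is read. In regulatory-marker T cells the *Il1rl1* shares were 12.9% (7.86 to 19.7) and 8.82% (7.90 to 9.81), which overlapped. The *Areg* shares were apart there, 13.6% (11.2 to 16.2) against 7.75% (6.79 to 8.79), and those for *Penk*, the precursor of enkephalins, were 17.9% (11.2 to 26.6) against 8.71% (7.80 to 9.69). In Foxp3 T cells the *Penk* shares were 10.0% (4.42 to 18.8) and 11.3% (10.1 to 12.5), although by CPM *Mt1* stood at 296 (241 to 360) with *Penk* and 185 (175 to 196) without, so the orders by share and by CPM differ and no order is read.

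Foxp3 T cells with proliferation genes had less *Mt1*. In the dKO-labelled library it was found in 7 of 146 such thinned cells, 4.79% (1.95 to 9.63), against 11.6% (10.4 to 12.9) of the other cells, and its level was 105 CPM (88.0 to 124) against 209 CPM (198 to 221). The corresponding levels of the WT-labelled library were 48.6 CPM (30.4 to 73.5) and 29.3 CPM (19.8 to 41.9), with overlapping intervals. Leaving out the cells with proliferation genes moved the log2 ratio of *Mt1* from 2.43 to 2.83.

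The *Mt1* of WT Foxp3 T cells rested on few cells. The 34 cells with *Il10* before thinning held 20 of its 52 UMIs, or 180 CPM (110 to 278), but 9 of them were in 1 cell, and after thinning 0 of 13 cells with *Il10* had *Mt1*, with an exact upper limit of 24.7%. The 455 cells without *Il10* had 23.4 CPM (16.04 to 33.1). By CPM, dKO cells with and without *Il10* stood at 221 (200 to 245) and 181 (169 to 192), so *Mt1* was higher in the dKO-labelled library in the cells without *Il10*, and the intervals of the libraries overlapped in the cells with it.

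T cell receptor sequences placed part of the cells in clones. In Foxp3 and regulatory-marker T cells of the dKO-labelled library as a pool, *Mt1* had 127 CPM (111 to 144) in cells whose clonotype was seen once, 152 CPM (122 to 187) in clones of 2 to 4 cells, 192 CPM (155 to 235) in clones of 5 to 19 cells and 349 CPM (307 to 395) in clones of 20 cells or more. Cells without a clonotype had 197 CPM (189 to 206). Without the largest clone, the last class had 167 CPM (125 to 219), below clones of 5 to 19 cells and with an overlapping interval, so its higher level rested on 1 clone. The share of cells with *Mt1* was 15.6% (12.9 to 18.5) in cells seen once and 17.6% (13.9 to 21.7) in clones of 20 cells or more. The same classes of size in the WT-labelled library had 11.7, 30.4, 22.7 and 12.8 CPM from 1 to 13 UMIs each.

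A few clones carried most of the *Mt1* in large clones. The largest clone had 281 cells, 226 of them in these classes, and held 197 UMIs or 489 CPM (423 to 563), with *Mt1* in 21.2% (16.1 to 27.2) of cells and up to 56 UMIs in 1 cell. It also held 28 *Mt2* UMIs. A clone of 21 cells had 30 UMIs and 744 CPM (502 to 1062), whereas clones with 54, 25 and 24 such cells had 77.0 CPM (30.9 to 159), 100 CPM (27.4 to 257) and 130 CPM (42.4 to 304). Of 35 clones with at least 5 cells, 24 had an *Mt1* UMI, and the largest clone held 61.4% of their *Mt1* UMIs. Without it the log2 ratio of *Mt1* in Foxp3 T cells was 2.39, and that of *Mt2* was 2.35.

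To read the ratios against the rest of the genes, all 3718 genes with at least 50 CPM in Foxp3 T cells of either library were compared in the same way. With 1 library per genotype, called means past 2-fold and is no test. Of the metallothioneins, *Mt1* passed the filter on level and was past 2-fold, as were 101 of the 3718 genes in this direction (2.72%), while 97 (2.61%) were 2-fold lower in the dKO-labelled library. The median log2 ratio of all genes was 0.003 and 90% lay between −0.76 and 0.71. *Mt1* had the 9th highest ratio, at the 99.8th percentile, which its choice used. *Mt2*, at 18.4 CPM, did not pass the filter. A gene could pass it through its higher library alone, as *Mt1* did through the dKO-labelled library.

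The genes of zinc handling were mostly rare. Of 22 genes of a list of metallothioneins, zinc exporters (Slc30 family) and zinc importers (Slc39 family), only *Mt1* passed 50 CPM. Below that level, and chosen for their roles after the values were seen, *Mtf1*, the zinc sensor, had 20.3 and 24.0 CPM, a log2 ratio of 0.24 (−0.33 to 0.85), and *Slc30a1*, the zinc exporter that MTF-1 is known to induce, had 10.8 and 15.0 CPM, a log2 ratio of 0.47 (−0.29 to 1.33). Both intervals include 0, so a difference was not detectable at this depth. *Slc39a4*, a zinc importer, stood at 0.60 (0.03 to 1.23) and *Slc30a9*, of the exporter family, at −0.63 (−1.09 to −0.16), with intervals that leave out 0 in opposite directions. In thinned dKO Foxp3 T cells, *Mtf1* was found in 2.90% of cells with *Mt1* and 2.41% without, and *Slc30a1* in 1.61% and 1.43%.

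Of 10 copper genes, 5 passed the filter and none was past 2-fold in either direction, with a median log2 ratio of 0.33. The copper chaperones *Atox1* and *Cox17* had the highest ratios, 0.52 (0.32 to 0.72) and 0.42 (0.24 to 0.61), and *Sod1*, the copper and zinc superoxide dismutase, and its chaperone *Ccs* had the lowest, −0.30 (−0.63 to 0.03) and 0.19 (−0.18 to 0.59). Of 17 genes of the NRF2 and redox list, 8 passed. *Gclm*, a subunit of the enzyme that starts glutathione synthesis, was past 2-fold at 50.1 and 101 CPM, a log2 ratio of 1.004 (0.66 to 1.37), and *Nfe2l2*, which encodes NRF2 itself, was 2-fold lower at 50.1 and 22.9 CPM, −1.13 (−1.54 to −0.71). The median was 0.33, with *Txn1* (thioredoxin) at 0.47 and *Prdx1* (a peroxiredoxin) at −0.03.

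Genes of known inducers of metallothioneins were counted next, in lists too short to read a share against the 2.72% and 2.61% of all genes. Of 12 glucocorticoid-response genes, 6 passed and none was called, with a median of −0.21. *Sgk1*, a kinase induced by glucocorticoids, had the highest log2 ratio at 0.71 (0.29 to 1.16) and *Dusp1*, a phosphatase, the next at 0.28 (0.20 to 0.37), while *Ddit4*, a stress-induced inhibitor of mTOR, and *Nr3c1*, the glucocorticoid receptor, had the lowest at −0.41 (−0.57 to −0.24) and −0.25 (−0.35 to −0.14). Of 10 genes of the IL-6 and STAT3 list, 9 passed with a median of 0.15. *Il6ra*, the receptor for IL-6, was the only one called, at 50.8 and 13.2 CPM, a log2 ratio of −1.94 (−2.40 to −1.49). *Batf*, a factor of effector Treg cells, stood at 0.68 (0.48 to 0.90), *Stat3* at 0.54 (0.40 to 0.68) and *Junb*, an AP-1 factor, at −0.44 (−0.48 to −0.39).

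Of 10 hypoxia genes, 5 passed and none was called, with a median of 0.14. The glucose transporter *Slc2a1* (0.36) and the mitophagy receptor *Bnip3l* (0.24) had the highest ratios, and *Ero1l*, an oxidase of protein folding (−0.16), and *P4ha1*, a prolyl hydroxylase (0.10), the lowest. Of 10 genes of dissociation and heat shock, all passed and none was called, with a median of −0.34. Their ratios ran from −0.89 for *Hspa1a* and −0.88 for *Hsph1*, both chaperone genes, to −0.20 for the stress factor *Atf3* and −0.13 for the co-chaperone *Dnajb1*.

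The list of checkpoint and suppression genes was the one with several calls in the direction of *Mt1*. All 11 passed the filter, 5 were past 2-fold in the dKO-labelled library and none was 2-fold lower, beside 2.72% and 2.61% of all genes, and the median was 0.76. The list had been chosen with results of these libraries known. *Lag3*, an inhibitory receptor, had 14.9 and 144 CPM, a log2 ratio of 3.27 (2.66 to 3.95), and *Il10* had 40.7 and 163 CPM, a log2 ratio of 2.00 (1.63 to 2.40). The others were *Entpd1*, encoding the ectoenzyme CD39 (2.00), *Tigit* (1.79) and *Fgl2*, a secreted suppressive protein (1.65). *Lag3*, *Il10* and *Entpd1* (31.8 and 127 CPM) passed the filter only through the dKO-labelled library, where they were high, and *Tigit* and *Fgl2* passed it in both. The count of 5 is therefore a description, and no enrichment is read from it. The lowest were *Nt5e*, encoding the ectoenzyme CD73, at −0.82 (−1.06 to −0.59) and *Gzmb*, granzyme B, at 0.24 (0.08 to 0.40).

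**Figure D4:**
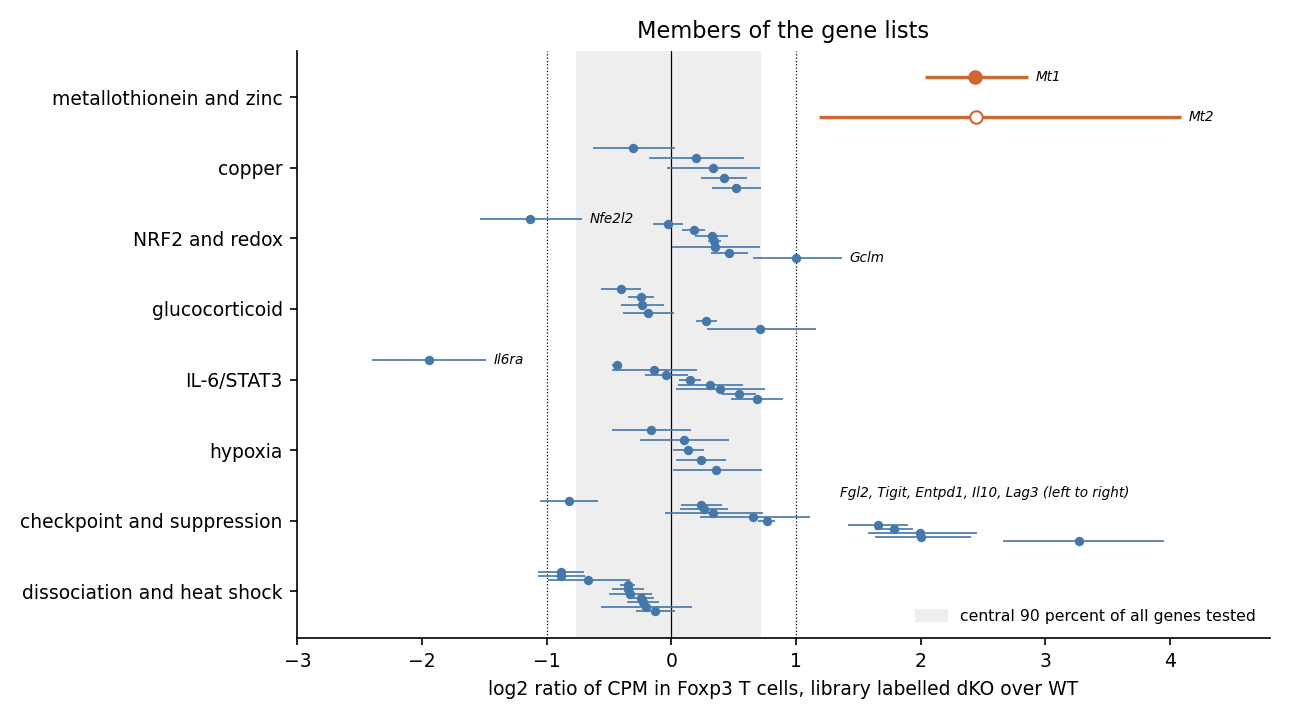
Log2 ratio of CPM in Foxp3 T cells, dKO-labelled over WT-labelled library, of the members of each list with at least 50 CPM in a library, with exact 95% intervals of counting error; *Mt2* (open point) did not reach that level, dotted lines mark 2-fold and the grey band holds 90% of the 3718 genes. *Mt1* and *Mt2* lie at 2.43 and 2.44, and past 2-fold in the same direction are otherwise *Gclm* and 5 checkpoint and suppression genes.

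Genes found in the same cells as *Mt1* were compared next, within the dKO-labelled library, between the 310 thinned Foxp3 T cells with *Mt1* and the 2453 without. Over 3143 genes found in at least 5% of these cells, the median difference in the share of cells was 0.01 percentage points and 90% of genes lay between −3.56 and 4.13. Of the 10 genes with the largest excess, *Ccl5*, a chemokine, was found in 77.1% (with *Mt1*) and 64.3% (without), a difference of 12.8 points. *Lilrb4a*, an inhibitory receptor, differed by 11.3 points (36.5% and 25.1%), *Ccr8*, a chemokine receptor of tissue Treg cells, by 11.1 points (46.1% and 35.0%) and *Klrg1* by 10.1 points (40% and 29.9%).

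The TNF receptor genes *Tnfrsf9* (4-1BB) and *Tnfrsf4* (OX40) followed, at 63.5% and 54.0% and at 84.8% and 75.3%. *Sqstm1*, an autophagy adaptor, differed by 9.24 points, *Id2*, a transcriptional regulator, by 9.21, *Fosl2*, an AP-1 factor, by 9.10 and *Cst7*, the protease inhibitor cystatin F, by 9.08. *Mt2* itself differed by 8.66 points. The largest deficits were in *Vim*, vimentin (38.4% and 53.4%, −15.0 points), *S100a4*, a calcium-binding protein (−11.0), *Hint1* (−9.89), *Emb*, embigin (−9.49), and *Fyb*, an adaptor of T cell receptor signaling (−9.24).

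Regulatory-marker T cells, which had no part in choosing these genes, were used as separate cells of the same library. All 10 excess genes were also more often found in cells with *Mt1* there, by 7.42 points (*Cst7*) to 21.5 points (*Tnfrsf9*), with *Ccr8* at 18.8 points and *Id2* at 18.4 points. The median difference over all genes compared was 0.15 points in this class. The share of all genes that were higher there was not counted, so the 10 are a description within 1 library. *Tnfrsf4* belongs to the gate of this class. Of the deficits, *Emb* (−15.7), *Fyb* (−7.50) and *Hint1* (−1.07) kept their direction, and *Vim* (0.55) and *S100a4* (2.48) did not. In the WT-labelled library, 11 Foxp3 T cells with *Mt1* remained after thinning, and *Ccl5*, *Lilrb4a*, *Tnfrsf4* and *Sqstm1* were less often found in them, by −9.26, −9.07, −11.5 and −10.4 points, where 1 cell is worth 9.09%. The other 6 were more often found in them, by 1.67 (*Ccr8*) to 22.7 points (*Id2*).

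Of the genes of the checkpoint and suppression list, named here after their values were seen, *Tigit* was found in 63.5% of dKO Foxp3 T cells with *Mt1* and 55.2% without, *Il10* in 20.6% and 13.7% and *Lag3* in 18.4% and 12.4%. Not all members stood apart in this way, with *Ctla4* in 79.0% and 79.7%, *Havcr2* in 4.84% and 5.18% and *Entpd1* in 14.5% and 13.2%. In regulatory-marker T cells *Ctla4*, a gene of their gate, was apart, at 80.9% (76.2 to 85.0) and 72.8% (71.3 to 74.3). The intervals of *Havcr2* and *Entpd1* overlapped there as well. The targeted genes were also more often found in dKO Foxp3 T cells with *Mt1*, *Nr4a1* in 72.6% (67.3 to 77.5) and 66.3% (64.4 to 68.2), and *Nr4a2* in 36.8% (31.4 to 42.4) and 28.4% (26.6 to 30.2). *Nr4a3*, the family member that was not targeted, was found in 27.4% (22.5 to 32.7) and 22.2% (20.5 to 23.9). The intervals of *Nr4a2* did not overlap, and those of *Nr4a1* and *Nr4a3* overlapped. In regulatory-marker T cells each of these genes was again more often found with *Mt1*, but other pairs of intervals stood apart. *Nr4a1* was found there in 67.4% (62.0 to 72.5) and 58.5% (56.8 to 60.2), which were apart. *Nr4a3* was also apart there, at 31.7% (26.7 to 37.1) and 23.9% (22.4 to 25.4). *Nr4a2* was found in 37.8% (32.6 to 43.4) and 32.8% (31.2 to 34.4) of that class, which overlapped. In the Foxp3 T cells as a whole, *Nr4a1* had 965 and 2241 CPM, *Nr4a2* 163 and 409 CPM and *Nr4a3* 348 and 291 CPM in the WT- and dKO-labelled libraries.

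**Figure D5:**
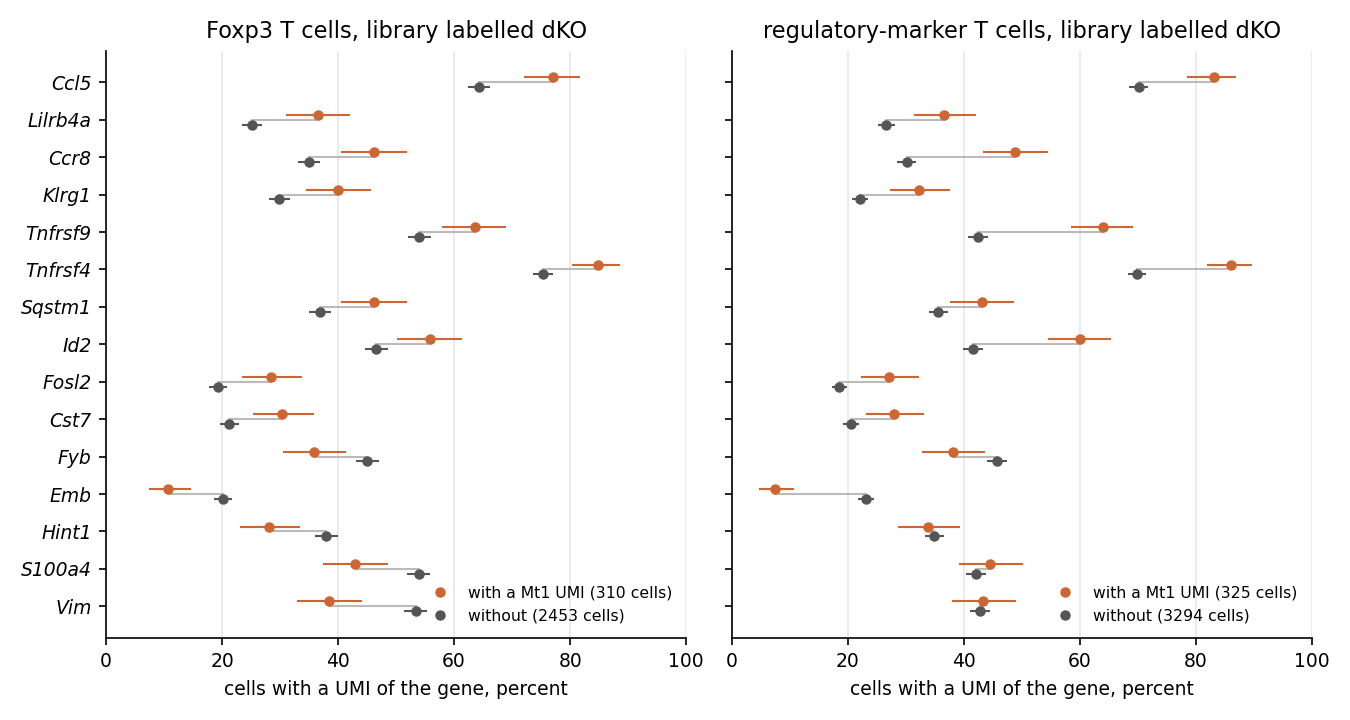
Percent of thinned cells with a UMI of each gene, in cells with and without an *Mt1* UMI, in the dKO-labelled library, for the 10 genes with the largest excess and the 5 with the largest deficit in Foxp3 T cells; bars are exact 95% binomial intervals. Genes were chosen in the left panel, and in the right panel all 10 excess genes keep their direction while *Vim* and *S100a4* do not.

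Depth and quality were compared between the same cells. Before thinning, dKO Foxp3 T cells with *Mt1* had a median of 2031 UMIs against 1562 in cells without. Their mitochondrial share was 0.977% against 1.02%, and their ribosomal share 15.7% against 16.2%. By depth, *Mt1* had 219 CPM in dKO Foxp3 T cells of 500 to 1000 UMIs, 282 CPM from 1000 to 2000, 156 CPM from 2000 to 4000 and 132 CPM above, all higher than in any depth bin of the WT-labelled library, where the levels were 0, 37.9, 13.1 and 49.9 CPM. The count of 0 in that bin, of 48 cells, allows up to 76.5 CPM.

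Markers of other cell types were summed in the Foxp3 T cells. Of 13 hepatocyte genes, 9 were at 0 in the WT-labelled library and 3 in the dKO-labelled library, and the list had 43.4 CPM (33.4 to 55.4) and 89.6 CPM (82.8 to 96.8). Hepatocytes are a known source of *Mt1* and *Mt2*, and this list differed in the same direction. Within the dKO-labelled library it had 96.9 CPM (81.9 to 114) in cells with *Mt1* and 87.6 CPM (80.0 to 95.7) in cells without, with overlapping intervals. In other classes of that library the list had 12.2 CPM (6.30 to 21.3) in naive-like T cells, which were lowest in *Mt1*, 39.3 CPM (29.2 to 51.8) in Ifng T cells and 61.1 CPM in pDC, and stood at 84.4 CPM (77.9 to 91.3) in regulatory-marker T cells and 219 CPM (191 to 250) in C1q+ cells. The macrophage list of 9 genes had 106 and 85.5 CPM in Foxp3 T cells, against 17025 and 22563 CPM in C1q+ cells, and 73.8 and 88.7 CPM in dKO Foxp3 T cells with and without *Mt1*. The pDC list of 5 genes had 8.81 and 61.2 CPM, and 55.4 and 62.8 CPM with and without *Mt1*. The neutrophil list had 13.6 and 16.1 CPM, and 7.25 CPM (3.62 to 12.97) and 18.6 CPM (15.2 to 22.5) with and without *Mt1*. The B cell list had 25.7 and 29.8 CPM, the endothelial and stellate list 104 and 54.5 CPM, and the red cell list no UMI. In regulatory-marker T cells of the dKO-labelled library 2 lists were higher in cells with *Mt1*, neutrophil at 45.6 CPM (33.3 to 61.0) against 12.3 CPM (9.70 to 15.3) and pDC at 81.1 CPM (64.3 to 101) against 51.0 CPM (45.6 to 56.8). The part of any of these lists in the ratio of *Mt1*, in either class, was not tested.

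Over 25 profiles of classes and libraries with at least 50 cells each, the genes most like *Mt1* by Pearson correlation of log2(CPM + 10) were *Plin2* (r = 0.88), *Axl* (0.84), *Eif4ebp1* (0.83), *Rab20* (0.83), *Ninj1* (0.83), *Rap2a* (0.83), *Spp1* (0.82), *Fabp5* (0.82), *Anxa4* (0.81) and *Slc11a1* (0.81), of 3909 genes. All 10 were highest in a myeloid class. *Plin2* coats lipid droplets, *Axl* is a receptor for dying cells, *Spp1* encodes osteopontin, *Fabp5* a fatty acid binding protein and *Slc11a1* a metal transporter of phagosomes. *Mt2* had r = 0.61 and *Mt3* 0.22. The profiles of 1 library share its preparation, and no test was run.

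Over the 14 T cell profiles alone none of these 10 genes remained among the 10 most alike, which then included *Itgb8* (0.95), *Cst7* (0.94), *Serpinb6a* (0.94), *Myo1d* (0.94), *Tapbp* (0.93), *Il10* (0.93), *Gda* (0.93), *Lag3* (0.93) and *Thap12* (0.92). *Itgb8* encodes an integrin chain with which Treg cells activate TGF-β. *Mt2* then had r = 0.93 and *Mt3* 0.74. Treg classes were gated on their own markers in both libraries, so genes of Treg cells and genes that differ between the libraries both score high here. The profiles also include the Foxp3 T cells of both libraries, whose values the choice of *Mt1* used, so genes higher in dKO Foxp3 T cells score high by construction.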

How the data were processed

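For each scRNA-seq library the authors deposited UMI counts by gene and cell, made with Cell Ranger 7.0.1 on mm10 per the file headers, without normalization, and tables of T cell receptor contigs, whose UMI counts rank the chains of a cell, as deposited. Cells with more than 200 genes and less than 5% mitochondrial counts were kept. The members and all gene lists were chosen with earlier results of these data known.

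UMIs of *Mt1* and *Mt2* were summed over the cells of a class and divided by all UMIs of those cells (CPM). Exact 95% intervals were taken from the Poisson distribution (CPM), from the binomial distribution given the summed count (ratios) and by Clopper-Pearson (shares). With 23437516 and 37794986 UMIs, a count of 0 allows up to 3 UMIs. PCR duplicates are collapsed by the UMI. Shares of cells used thinning to 1000 UMIs with seed 1. Gates, in order, were low-ribosomal droplets (ribosomal genes under 6%), pDC, myeloid, mature dendritic, T cells (Foxp3, proliferating, Il17, Ifng, regulatory-marker, naive-like, other), ILC3-like and unclassed.

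Most genes were named by rule: the metallothioneins, the Nr4a family, the 2 highest and 2 lowest ratios of each list at 50 CPM, the 10 profiles most like *Mt1* (at least 100 CPM in a profile and 100 UMIs in all), and the 10 largest excesses and 5 largest deficits in cells with *Mt1*. T cell receptor, immunoglobulin, mitochondrial and ribosomal genes were left out of the last 2 sets. Outside these rules, *Mtf1* and *Slc30a1* were named for their roles after their values were seen. The checkpoint genes compared between cells with and without *Mt1* were also named after their values were seen. Other genes, among them *Slc39a4*, *Slc30a9*, *Nup93*, *Nudt21*, *Herpud1* and the markers of classes and subsets, fall under none of the rules. Scrublet in scanpy marked 0 cells of either library automatically, so 1001 and 2489 cells with the highest scores (0.8% per 1000 cells) or at least 2 TRB chains were marked instead and kept in the reported values.

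Software was scanpy 1.11.5, scipy 1.17.1, pandas 2.3.3, numpy 2.4.6 and matplotlib 3.10.9 in Python 3.11.15, and edgeR 4.0.16 in R 4.3.3 for TMM factors alone. Scripts were tested on simulated data. Gene identifiers were matched to GENCODE M21 for 32158 of 32285 genes. No amino acid sequences were used here. Some genes that met these rules are not reported here.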

Additional observations from a re-analysis of the deposited data

Results flagged for a closer look

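The ratios of *Mt1* had opposite signs in 2 T cell classes, although the interval of the lower one includes 0. Its log2 ratio of dKO-labelled over WT-labelled library was −0.79 (−2.79 to 0.78) in naive-like T cells, from 21 and 4 UMIs, and 2.43 in Foxp3 T cells. The difference between these ratios was not tested, since each genotype has 1 library, and only classes with at least 20 *Mt1* UMIs over both libraries were compared.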

How the results depend on the processing

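The log2 ratio of *Mt1* in Foxp3 T cells was above 0 and past 2-fold under all 11 alternatives, from 2.13 to 3.16, and that of *Mt2* under all 11, from 1.81 to 3.66. Against 2.43, the ratio of *Mt1* moved beyond its interval to 3.16 with regulatory-marker T cells added, 2.96 with T cells defined by a TRB contig only and 2.97 with CPM averaged over single cells. TMM factors gave 2.51. Removal of shared barcodes, and of the largest clone from the clones of 20 cells or more, was chosen after seeing the data.

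Shares of cells followed the depth. The share of Foxp3 T cells with *Mt1* in the WT-labelled library, 2.49%, was 5.42% with thinning to 2000 UMIs, 0.818% with 500 and 6.75% without thinning. In the dKO-labelled library, 11.2% became 16.8%, 6.79% and 17.4%, and 7.14% with 1 cell per clonotype. The share with *Mt2* in the WT-labelled library, 0.227%, was 0 with 1 cell per clonotype. In the dKO-labelled library, 1.99% became 1.06% with 500 UMIs and 3.12% without thinning. The cause of the moves with 1 cell per clonotype was not tested.

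Genes past 2-fold were 101 higher and 97 lower in the dKO-labelled library at 50 CPM, 170 and 214 at 20 CPM, 764 and 1900 without a filter on low counts, and 114 and 130 with doublets left out, so more genes were lower under these 3 settings, whereas TMM factors gave 114 higher and 81 lower. Without a filter the directions are not on a par. A count of 0 was set to 3 UMIs, which is 2.03 CPM in the WT-labelled and 0.421 CPM in the dKO-labelled library. A gene at 0 in the dKO-labelled library was therefore called lower at fewer CPM than one at 0 in the WT-labelled library was called higher. Of the 10 genes most like *Mt1*, 6 remained with a pseudocount of 1 CPM and 0 with T cell classes only. Over all pairs of a result and an alternative, 25 values moved and 64 did not. No paired analysis was possible because each genotype has 1 library.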
